A study of Rattus norvegicus with 12 samples.

Results

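The 10 genes described here are signals and surface molecules of inflammation in the liver: the chemokines CCL2, CXCL1 and CXCL10, the cytokines IL1B and TNF with the antagonist IL1RN, and the macrophage genes CD68, CD163, CD14 and MARCO. They were taken by name from a list fixed by symbol, and all 10 were found among the 14692 genes of the expression table. The table holds whole liver of male Sprague Dawley rats, 4 to 5 months old, at 0, 4, 12 and 24 h after partial hepatectomy (PH), the surgical removal of liver lobes after which the remnant regrows. Every rat carried a duodenal catheter with continuous saline. One group (Cont) had a sham operation, and 2 groups had a biliary fistula, a catheter that drains bile out of the body, in one of them with sodium taurocholate, a bile acid (BA), infused into the duodenum at 0.5 mg/g/day. PH followed surgery by 24 h, so that the 0 h samples are livers 24 h after the fistula or sham operation.

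The fistula columns are titled BF and BA, and the 2 sets of labels disagree on which is which. In the study BF names the fistula alone and BA the fistula with infusion, whereas the sample descriptions attach the infusion to the columns titled BF and none to those titled BA. CYP7A1, whose product limits the rate at which bile acids are made and which bile acids returning from the gut are known to repress, was higher in the columns titled BF than in those titled BA at all 4 times. It was at 387, 13.8, 136 and 334 RPKM in BF and at 54.9, 1.81, 3.17 and 68.8 RPKM in BA, against 60, 4.59, 8.53 and 57.3 RPKM in Cont. The study reported raised Cyp7a after the fistula alone, which the infusion reversed. Since the labels still conflict, the columns are called by their titles, and no difference between BF and BA is read as an effect of the infusion. Comparisons of both fistula groups with Cont do not depend on the names.

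Values are RPKM, reads scaled to transcript length and library total, which allow levels to be compared between genes. Each of the 12 columns is a value the authors combined from 2 runs, the first on 1 rat and the second on the mixed RNA of 3 others. No spread between rats could therefore be computed, and read depth is unknown. The columns summed to between 727435 and 982826 RPKM, and their 10 most abundant genes took 29.4% to 53.2% of the sum. The BA column at 4 h had the highest share, with 303637 RPKM of ALB. Of 18 pancreatic acinar genes above 0 somewhere, 15 were highest in the BF column at 12 h, with CTRB1 at 84.7 RPKM against at most 0.57 RPKM in the other columns. The other 3, SPINK1, AMY1A and CELA1, were present in every column and were not highest there. They dominate the summed level of the list, with SPINK1 at a mean of 798 RPKM. The sum therefore did not set that column apart and does not reflect the other 15.

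Chemokines are small secreted proteins that draw leukocytes into tissue. CXCL1 attracts neutrophils, CCL2 attracts monocytes, and CXCL10 is an interferon-induced ligand that attracts activated T cells. IL-1 beta and TNF are released by Kupffer cells, the resident macrophages of the liver, and act through NF-kB and kinase cascades, while the IL-1 receptor antagonist occupies the receptor without signalling. TNF and IL-6 signalling is known for its part in priming hepatocytes to enter the cell cycle after PH.

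The upstream sequences of CXCL1 and IL1RN are shown because both matched 1 spelling of the kappaB motif near their start sites. KappaB is the motif that NF-kB binds. RefSeq promoters (GRCr8) were at hand for 9 of the 10 genes, all but CCL2, and 250 bases before each start were searched on both strands for GGG, any 2 bases and TTTCC. The motifs were chosen with the values known, and other spellings of kappaB were not searched. CXCL10, which fell at 4 h, held gggaaattcc and gggaacttcc, which other spellings of kappaB may admit. Which genes match thus depends on the spelling, and no link between the motif and a rise after PH was tested. CXCL1 held 2 matches, IL1RN held 1, and the other 7 genes held none, against 1.30% of all 33469 promoters with at least 1. The 150 bases before each start read as follows, 5′ to 3′ on the gene's strand, with the matches in capitals (CXCL1, chr14:17479322-17479471, minus strand; IL1RN, chr3:27520172-27520321, plus strand).
CXCL1: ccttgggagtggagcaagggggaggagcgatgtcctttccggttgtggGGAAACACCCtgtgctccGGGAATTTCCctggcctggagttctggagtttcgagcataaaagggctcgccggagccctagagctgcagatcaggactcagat
IL1RN: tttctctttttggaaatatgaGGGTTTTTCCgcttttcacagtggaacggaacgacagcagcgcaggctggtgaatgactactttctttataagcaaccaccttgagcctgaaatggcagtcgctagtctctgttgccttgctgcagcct
The first match of CXCL1 lies on the opposite strand, at position -102 from the start, and the second at position -84. The match of IL1RN is at position -129. Of the other motifs searched, TGANTCA (AP-1) occurred in CXCL10 and 2 times in CD68 (6.34% of all promoters), the interferon-stimulated response element (TTTC, any 2 bases, TTTC) in CXCL10 (3.41%) and TATAAA within 50 bases of the start in TNF (2.26%), and neither TTCNNNGAA (STAT, 7.67%) nor TTGCGCAA (C/EBP, 0.140%) occurred in any of the 9. A match is a run of letters and not a measured binding site.

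**Figure D1:**
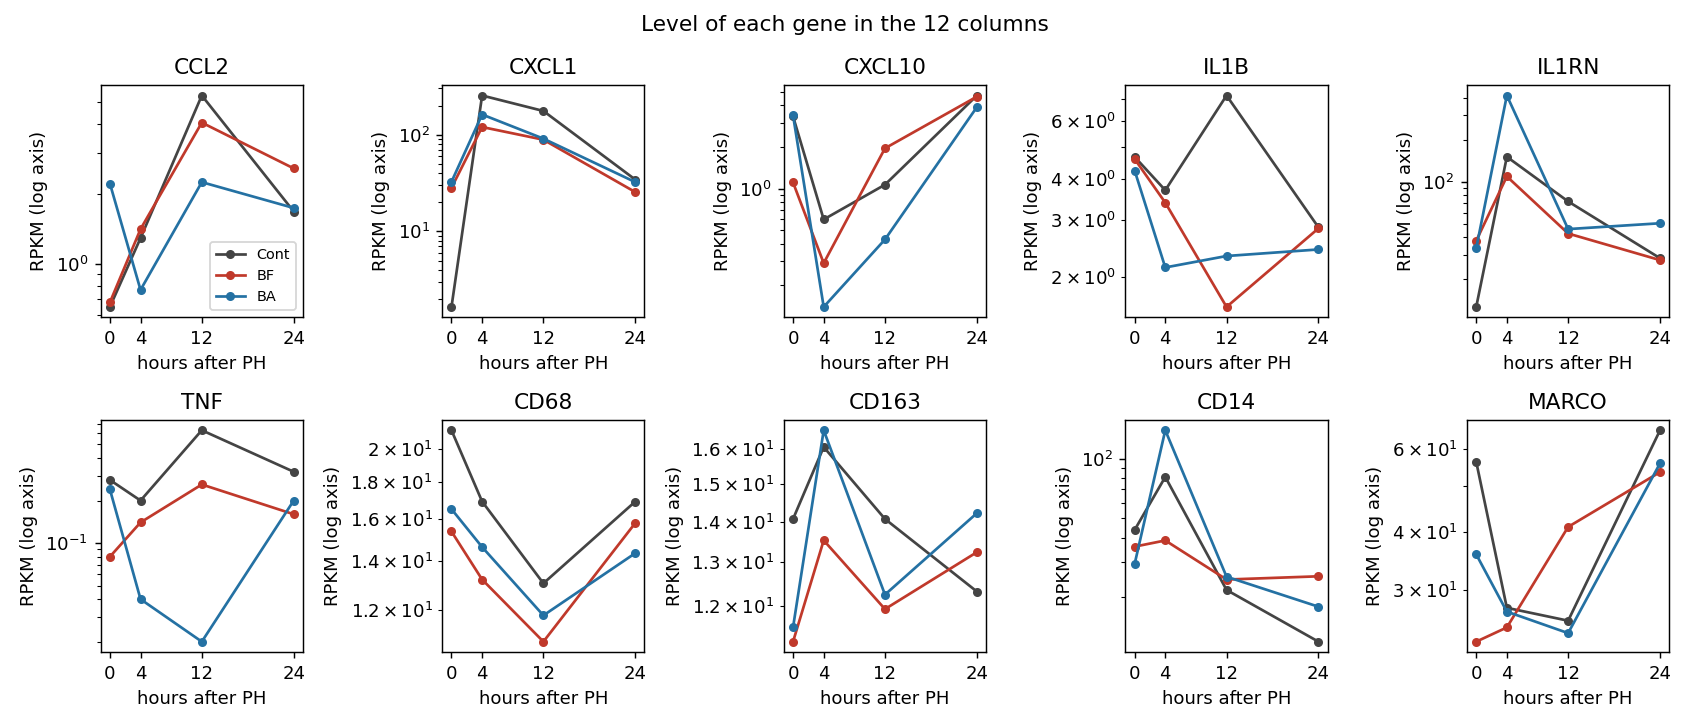
RPKM of the 10 genes (log axis, scaled for each gene) against hours after PH, with 1 point per column and a line for each of Cont, BF and BA. CXCL1 starts at 1.66 RPKM in Cont and at 28.2 and 32.6 RPKM in the fistula columns, and all 3 lines peak at 4 h.

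CXCL1 had the widest range of the 10 genes, and rose from the third lowest level in Cont at 0 h to the highest at 4 h. In Cont it was at 1.66, 254, 176 and 34.3 RPKM at 0, 4, 12 and 24 h. In BF it read 28.2, 119.9, 88.7 and 25.5 RPKM, and in BA at 32.6, 162, 90.9 and 32.3 RPKM. Every group was highest at 4 h, and no 4 h column overlapped any 0 h column. The rise from 0 to 4 h was 153-fold in Cont, 4.25-fold in BF and 4.96-fold in BA.

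Changes over time were tested with limma on log2(RPKM + 1) in a model with an effect for each group and each time, over 8459 genes that averaged 1 RPKM or more. Its error is the departure of the 12 columns from that sum of effects, so that its p-values do not measure the spread between rats. At 4 h against 0 h, 2 of the 9 members tested rose (12.9% of all genes) and 1 fell (32.4% of all genes). CXCL1 rose by 3.64 (95% interval 1.79 to 5.48, adjusted p = 0.0068). IL1RN rose by 2.86 (1.83 to 3.89, adjusted p = 0.0015) and CXCL10 fell by 1.36 (adjusted p = 0.0070). On this scale the median gene fell by 0.20 at 4 h and 0.12 at 12 h, and was 0.21 higher at 24 h.

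IL1RN, which blocks the IL-1 receptor, peaked at the same time. It was at 12.7, 151, 72.4 and 28.4 RPKM in Cont and at 37.9, 109, 42.7 and 27.5 RPKM in BF. The BA columns read 33.4, 416, 45.9 and 50.5 RPKM. All 3 columns at 4 h lay above all 3 at 0 h. Without the BA column at 4 h, which held the highest value, the rise was 2.42 (adjusted p = 0.0074).

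CXCL10 moved in the opposite direction at 4 h. Its levels were 3.33, 0.60, 1.07 and 4.72 RPKM in Cont, 1.11, 0.29, 1.96 and 4.63 RPKM in BF, and 3.39, 0.14, 0.43 and 3.89 RPKM in BA. The 3 columns at 4 h were the lowest of their groups and did not overlap those at 0 h, and the 3 at 24 h were the highest of their groups. The fall missed the threshold when the Cont columns (adjusted p = 0.057) or the BA columns (0.065) were left out, with effects of -1.33 and -1.07. At these low levels the added 1 RPKM reduces the change, and with 0.1 RPKM it was -2.60.

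At 12 h against 0 h, 2 of the 9 rose (9.03% of all genes) and 1 fell (22.5% of all genes). CXCL1 was still higher by 3.04 (1.20 to 4.89, adjusted p = 0.0216). CCL2 rose by 1.18 (0.48 to 1.89, adjusted p = 0.0203). CD68, a glycoprotein of macrophage lysosomes, fell by 0.53 (adjusted p = 0.0044). The call of CXCL1 was lost without the BA columns (adjusted p = 0.053) or the BF columns (0.072), with effects of 3.84 and 3.75, and was kept without Cont at an effect of 1.54 (adjusted p = 0.0055). CXCL10 at -1.11 was called as well without the BF column at 12 h (adjusted p = 0.0229).

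CCL2 stayed low throughout. It was at 0.65, 1.29, 5.33 and 1.68 RPKM in Cont, at 0.68, 1.41, 4.07 and 2.58 RPKM in BF and at 2.22, 0.77, 2.25 and 1.74 RPKM in BA. Each group was highest at 12 h, although the BA column at 12 h exceeded its own 0 h column by only 1.01-fold, against 8.20-fold in Cont and 5.99-fold in BF. The call was lost without Cont (effect 0.80, adjusted p = 0.22), without BF (0.98, adjusted p = 0.17) and without the BF column at 12 h alone (1.15, adjusted p = 0.059).

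At 24 h against 0 h, limma called 0 of the 9 members (36.1% of all genes), with 2 of 9, CD14 and MARCO, at an unadjusted p under 0.05 (47.6% of all genes). A single setting was enough to add a call: MARCO at 0.67 without the BF column at 12 h (adjusted p = 0.0295), CD14 at -0.99 without the BA column at 4 h (0.0434), CCL2 at 0.90 without the BA columns (0.0196), and CD68 at -0.47 with rescaled columns (0.0084). CXCL1 was then 1.19 higher (-0.65 to 3.04, adjusted p = 0.28). Its 24 h levels were 20.7-fold the 0 h level in Cont, 0.903-fold in BF and 0.993-fold in BA.

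**Figure D2:**
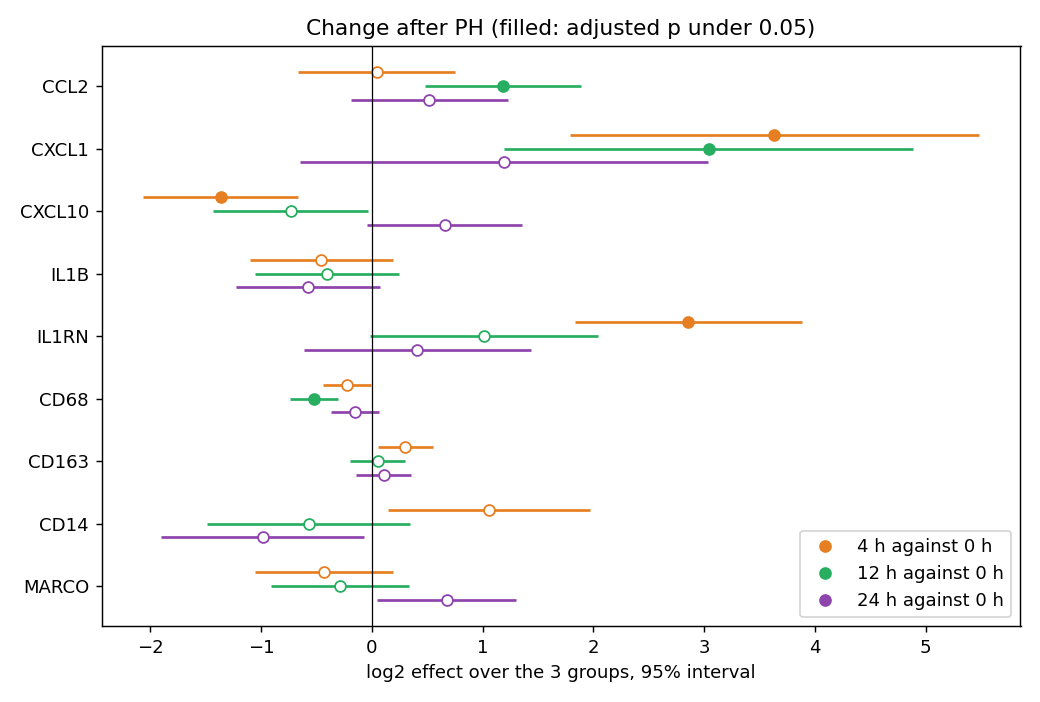
log2 effect of each time against 0 h, over the 3 groups, for the 9 genes tested with limma (points, with 95% intervals as bars). Filled points passed an adjusted p of 0.05, 3 genes at 4 h, 3 at 12 h and 0 at 24 h; the widest intervals are those of CXCL1.

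IL1B did not pass the test at any time and TNF was too low to enter it. IL1B was at 4.67, 3.69, 7.20 and 2.84 RPKM in Cont, 4.60, 3.38, 1.62 and 2.82 RPKM in BF, and 4.24, 2.14, 2.32 and 2.43 RPKM in BA. Its 4 h effect was -0.46 (-1.10 to 0.19, adjusted p = 0.22). IL1RN exceeded IL1B 2.72-fold in Cont at 0 h and 41.0-fold at 4 h, where both values are levels per length of transcript. At the same times the ratio was 8.23 and 32.4 in BF, and 7.89 and 194 in BA.

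The 12 h columns of IL1B diverged, at 7.20 RPKM in Cont against 1.62 and 2.32 RPKM in the fistula groups. TNF was listed between 0.02 and 0.63 RPKM, with its highest value also in Cont at 12 h. Its mean of 0.21 RPKM was below the filter, so that it was not tested with the other members. Without the filter, limma with group and time effects gave -0.22 for BF against Cont (adjusted p = 0.28) and -0.27 for BA against Cont (adjusted p = 0.22). The effect was -0.09 at 4 h (adjusted p = 0.59), 0.10 at 12 h (adjusted p = 0.59) and 0.03 at 24 h (adjusted p = 0.86).

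The 4 macrophage genes took different courses. CD68 was at 21.2, 16.9, 13.1 and 16.9 RPKM in Cont, 15.4, 13.2, 10.9 and 15.8 RPKM in BF, and 16.5, 14.7, 11.8 and 14.4 RPKM in BA. Each group was lowest at 12 h, and no 12 h column overlapped a 0 h column. The fall at 12 h missed the threshold without the Cont columns (effect -0.46, adjusted p = 0.097).

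CD163, the scavenger receptor for haemoglobin bound to haptoglobin, had the narrowest range of the 10 genes, from 11.2 to 16.6 RPKM. It was at 14.1, 16.1, 14.1 and 12.3 RPKM in Cont, 11.2, 13.5, 11.9 and 13.2 RPKM in BF, and 11.5, 16.6, 12.3 and 14.2 RPKM in BA. Every group was higher at 4 h than at 0 h, and the effect of 0.30 (0.05 to 0.55) just missed the threshold (adjusted p = 0.0501). It passed with columns rescaled on the median gene, at 0.43 (adjusted p = 0.0229).

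CD14, the co-receptor that hands lipopolysaccharide to TLR4, was highest at 4 h in each group. It was at 43.7, 80.9, 21.8 and 11.9 RPKM in Cont, 36.0, 38.7, 24.6 and 25.5 RPKM in BF, and 29.4, 139, 25.4 and 17.9 RPKM in BA. The 4 h effect was 1.06 (0.15 to 1.97, adjusted p = 0.058), and 0.60 (adjusted p = 0.25) without the BA column at 4 h. The change was 4.73-fold in BA, 1.85-fold in Cont and 1.07-fold in BF.

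MARCO, a scavenger receptor of Kupffer cells that binds bacteria, was highest at 24 h in each group. The levels were 56.5, 27.5, 25.8 and 65.9 RPKM in Cont, 23.3, 25.0, 41.0 and 53.6 RPKM in BF, and 35.8, 27, 24.3 and 56.0 RPKM in BA. At 12 h the BF column was above its 0 h level and the Cont and BA columns were below theirs. The effect at 24 h was 0.67 (0.05 to 1.30, adjusted p = 0.084).

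Other macrophage genes were counted over a list of 39 symbols, of which 28 were tested. At 4 h 2 rose and 9 fell (12.9% and 32.4% of all genes), a share of falls near that of all genes. At 12 h 0 rose and 14 fell (9.03% and 22.5% of all genes), and at 24 h 1 rose and 5 fell (30.6% and 5.54%). The median effect at 12 h was -0.35, against -0.12 for all genes. Among those that fell at 12 h were CLEC4F, a lectin of Kupffer cells (-0.56, adjusted p = 0.0099), CSF1R, the receptor that maintains macrophages (-0.59, adjusted p = 0.0114), and MPEG1, a pore-forming protein of phagocytes (-0.97, adjusted p = 0.0029). In bulk tissue, fewer macrophages and less RNA per macrophage cannot be told apart. Among the markers of other cells at 12 h, 0 rose and 5 of 9 fell for sinusoidal endothelium, 0 rose and 4 of 4 fell for lymphocytes, and 0 rose and 3 of 5 fell for cholangiocytes. For stellate cells 2 rose and 5 of 13 fell, for hepatocytes 2 rose and 3 of 14 fell, and for neutrophils 3 rose and 2 of 9 fell. Their part in the fall of CD68 was not tested.

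**Figure D3:**
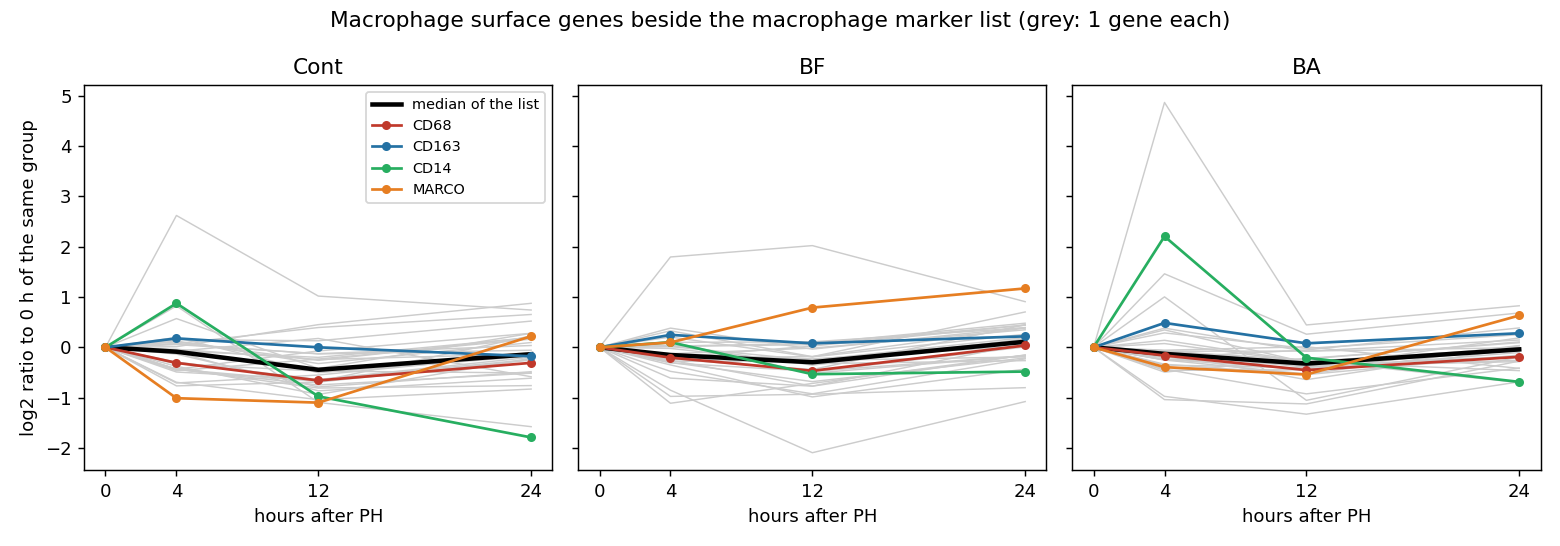
log2 ratio to the 0 h column of the same group, after adding 1 RPKM, against hours after PH, for CD68, CD163, CD14 and MARCO (coloured lines), the 28 macrophage marker genes (grey lines, 1 per gene) and their median (black line). The median lies below 0 at 12 h in each group, while CD14 rises by 2.21 in BA at 4 h and MARCO is 0.79 higher in BF at 12 h.

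The question put to both fistula groups was whether loss of bile changed these genes before or after PH. In the model with group and time effects, limma called 0 of 9 members between BF and Cont (0.804% of all genes), 0 between BA and Cont (0.0709%) and 0 between BF and BA (0.0118%). At an unadjusted p under 0.05 there was 1 of 9 in each comparison with Cont, CD68 (21.9% of all genes for BF and 22.7% for BA), and 0 between BF and BA (7.81%). CD68 was lower than Cont at all 4 times in both groups, by 0.28 in BF (interval -0.46 to -0.09, adjusted p = 0.13) and by 0.22 in BA (-0.41 to -0.04, adjusted p = 0.18). The median gene was lower by 0.11 in BF and 0.14 in BA. With columns rescaled on the median gene, CD68 was at -0.16 in BF (adjusted p = 0.42) and -0.08 in BA (adjusted p = 0.74), and it turned higher than Cont in BF at 24 h (0.04) and in BA at 4 h (0.04).

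No member passed the test between BF and BA. The difference between them in IL1RN was -0.67 (-1.56 to 0.21), in CXCL1 -0.25 (-1.85 to 1.35) and in CD163 -0.11 (-0.33 to 0.11). These intervals do not show that the groups were alike.

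An average over the times hides the 0 h columns of CXCL1. At 0 h CXCL1 was 17.0-fold higher in BF and 19.6-fold higher in BA than in Cont, and at 4 and 12 h it was lower than Cont in both, at 0.472- and 0.636-fold at 4 h and 0.505- and 0.518-fold at 12 h. The group effect of CXCL1 accordingly changed sign when the 0 h columns were left out, to -0.82 from 0.25 in BF and to -0.56 from 0.50 in BA.

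The pattern was described with a second limma model, chosen after these values had been seen, in which BF and BA are 2 samples of a fistula at each time and the single Cont column is assumed to vary like them. BF and BA had different treatments, and the difference between them is the only source of the model's error. None of its p-values, for CXCL1 or other genes, measures the spread between rats or any spread of Cont. The p-values for CXCL1 restate the pattern that led to the model, with 1 Cont column a time. They are no independent evidence of a difference. At 0 h, CXCL1 was 3.56 higher in the fistula columns (3.0 to 4.11, adjusted p = 0.0015), and it was the only one of the 9 members called (0.461% of all genes). IL1RN was 1.42 higher (-0.17 to 3.0, adjusted p = 0.58), at 37.9 and 33.4 RPKM against 12.7 RPKM in Cont. MARCO was 0.94 lower (-1.73 to -0.16, adjusted p = 0.43), at 23.3 and 35.8 RPKM against 56.5 RPKM.

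The change of CXCL1 from 0 h was smaller in the fistula columns at each later time. The difference in change was -4.42 at 4 h (-5.20 to -3.64, adjusted p = 0.0150), -4.52 at 12 h (adjusted p = 0.0046) and -3.81 at 24 h (adjusted p = 0.0112). It was the only gene of 8459 called at 4 h (0.0118%), and 1 of 4 at 12 h and at 24 h (0.0473% each). These 3 differences and the 0 h result all rest on the single Cont column at 0 h. The 4 h effect kept its size without a filter on low values, with rescaled columns and without the BF column at 12 h. The 24 h effect kept its size without a filter.

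Among the other members, IL1B at 12 h stood lowest against Cont in the second model, by 1.48. The difference rests on 1 Cont column and did not survive adjustment over all genes. IL1RN at 4 h was split, 2.75-fold higher than Cont in BA and 0.723-fold in BF. Its BA column was also the one with 1182 RPKM of HMOX1, a haem-degrading enzyme of stressed cells, against 39.5 to 279 RPKM elsewhere, and the part of that column in the split was not tested.

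Single columns were compared by a log2 ratio of at least 1 in size after adding 1 RPKM, as a description. Against Cont at 0 h, 4 of the 9 members passed in BF (3.89% of all genes), CXCL1 and IL1RN higher and CXCL10 and MARCO lower, and 2 in BA (4.02%), again CXCL1 and IL1RN. At 4 h, CXCL1 and CD14 were lower in BF (4.35%) and IL1RN was higher in BA (7.28%). At 12 h the only member past it was IL1B, lower in BF (3.52%) and in BA (1.71%). At 24 h it was CD14, higher in BF (2.08%), with 0 in BA (2.05%).

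Between BF and BA, CXCL10 was lower in BF at 0 h (1.82%) and higher at 12 h (1.92%), IL1RN and CD14 were lower in BF at 4 h (4.72%), and 0 members passed at 24 h (1.86%). Against its own 0 h column, Cont had 4 members past the limit at 4 h (9.2%), 5 at 12 h (13.9%) and 3 at 24 h (11.3%). BF had 2 at 4 h (12.0%), 3 at 12 h (7.61%) and 3 at 24 h (11.1%), and BA had 4 (17.8%), 2 (7.06%) and 0 (5.24%). CXCL1 and IL1RN passed at 4 h in all 3 groups. Comparisons that name Cont, or 0 h, share those columns.

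**Figure D4:**
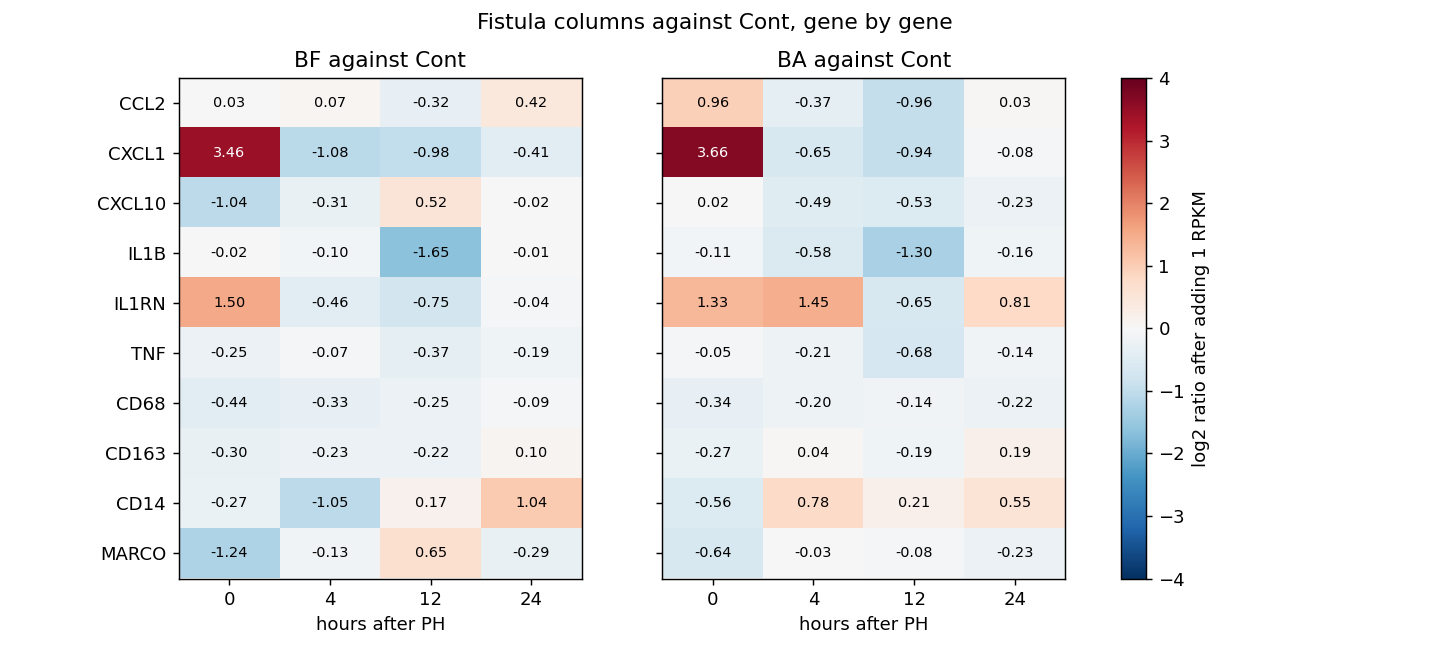
log2 ratio to the Cont column of the same time, after adding 1 RPKM, for the 10 genes (rows) at 0, 4, 12 and 24 h (columns) in BF and BA; red is higher and blue lower than Cont, with the value in each cell. CXCL1 at 0 h reads 3.46 and 3.66, IL1B at 12 h reads -1.65 and -1.30, and CD163 stays within 0.30 of Cont.

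Some transcripts of the neutrophil list, which stressed hepatocytes can share, were high in the same fistula columns. At 0 h, LCN2, an iron-sequestering acute phase protein, was at 808 RPKM in BF and 1388 RPKM in BA against 3.03 RPKM in Cont. S100A8 and S100A9, a pair of calcium-binding alarmins, were higher than in Cont as well. LBP, the plasma protein that carries lipopolysaccharide to CD14, was at 465 and 452 RPKM against 48.7 RPKM. These differences rest on the single Cont column at 0 h. Of 23 neutrophil symbols 20 were above 0 somewhere, and their summed level ran from 33.9 to 2309 RPKM in Cont, 854 to 4300.1 RPKM in BF and 1436 to 3919 RPKM in BA. LCN2 made up 8.93% of that sum in Cont at 0 h, 68.4% in Cont at 4 h and 94.4% to 98.3% in the other columns. Granule genes that neutrophil precursors transcribe were near 0 in every column, with MPO at most 0.07, ELANE at most 0.03, LTF at most 0.01 and CAMP at most 0.25 RPKM. Other members of the list were low but varied, with MMP8 from 0.05 RPKM in Cont at 0 h to 1.65 RPKM in BA at 4 h, CSF3R from 0.22 to 0.96 RPKM and PGLYRP1 from 0.1 to 0.92 RPKM. The part of neutrophils in the levels of CXCL1 was not tested.

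The receptors and NF-kB genes around these ligands were read over lists of their own. Of 20 genes of the IL-1, TNF and lipopolysaccharide receptor system tested, 7 rose and 4 fell at 4 h (12.9% and 32.4% of all genes), 5 rose and 1 fell at 12 h (9.03% and 22.5%), and 3 rose and 0 fell at 24 h (30.6% and 5.54%). IL1R1, the signalling IL-1 receptor, rose by 1.98 at 4 h (adjusted p = 0.0003), from 44.8 to 259 RPKM in Cont, 54.2 to 167 RPKM in BF and 59.3 to 213 RPKM in BA. IL1R2, the decoy receptor, rose by 1.38 at 4 h and 2.18 at 12 h (adjusted p = 0.0008 and 0.0002). TLR4 ranged from 0.69 to 1.27 RPKM and IL6 did not exceed 0.23 RPKM.

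Of 16 NF-kB subunits and feedback genes tested, 5 rose and 2 fell at 4 h, 4 rose and 0 fell at 12 h, and 2 rose and 0 fell at 24 h, against the same shares of all genes. BCL3, an IkB family member, rose by 1.78 at 4 h (adjusted p = 0.0068), and SOD2, a mitochondrial superoxide dismutase induced by NF-kB, by 1.67 (adjusted p = 0.0005). Of 11 other chemokines tested, 0 rose and 4 fell at each time, against 32.4%, 22.5% and 5.54% of all genes falling at 4, 12 and 24 h. CXCL12 was among the 4 each time, and the others differed between 4 and 24 h, with CCL4, CCL9 and CXCL11 at 4 h and CCL5, CCL24 and CXCL9 at 24 h. CXCL11, which shares its receptor with CXCL10, fell by 1.47 at 4 h (adjusted p = 0.0034). CCL9, the most abundant of them at 290.5 to 603 RPKM, fell by 0.57 (adjusted p = 0.0097), and CXCL12, the ligand of CXCR4, by 1.78 (adjusted p = 0.0047). CXCL2 and CXCL3, the nearest relatives of CXCL1, did not exceed 1.27 and 0.73 RPKM.

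Likeness was measured as Pearson's r of log2(RPKM + 1) over the 12 columns, which share 3 groups and 4 times, and is given as a description. The genes most like CXCL1 were NOS1AP (r = 0.957), BCL3 (0.950) and STAT3 (0.936), the transcription factor downstream of IL-6. Those most like IL1RN were RGS1 (0.977), FOXQ1 (0.964) and SLC39A14 (0.957), and each peaked in the BA column at 4 h. CXCL10 was closest to MUTYH (0.959), and MARCO to THAP4 (0.951). Among the members themselves, r was 0.90 for CXCL10 with MARCO, 0.81 for CXCL1 with IL1RN and -0.77 for CXCL10 with IL1RN, whereas CD68 with CD163 gave 0.21.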

How the data were processed

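The authors sequenced whole liver RNA (Illumina TruSeq libraries), made an RPKM file from each of 2 runs per group and time, and combined them into 1 deposited table of RPKM values with 2 decimals. The weighting of the runs is not given in the sources used here. Processing notes by the submitters name CASAVA, Bowtie 0.12.2 and the builds rn4 and mm8, without roles. RPKM divides by the library total, so that very abundant genes lower the rest.

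Of 14692 genes, 1 had no value, 2303 were at 0 throughout and 8459 had a mean of at least 1 RPKM. These were fitted on log2(RPKM + 1) with limma 3.58.1 (R 4.3.3, group plus time, 6 residual degrees of freedom, variance trend, Benjamini-Hochberg threshold 0.05). A fold is a ratio of RPKM. The second model had 4 residual degrees of freedom. Both were tested on simulated data. Python 3.11.15, numpy 2.4.6, pandas 2.3.3 and matplotlib 3.10.9 were used. All 10 members were reported, with up to 4 of the most abundant genes from each list and the 3 genes most like each member considered for naming. The others were named after their values were seen. The members and lists were chosen with earlier results of these data known. Gene names are those the authors deposited with the RPKM values. Promoters came from RefSeq (GRCr8).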

Additional observations from a re-analysis of the deposited data

Results flagged for a closer look

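Changes of 3 members ran in opposite directions between groups, with 1 column a side, and these differences were not tested column by column. From 0 to 4 h the log2 ratio of CCL2 was 0.52 in BF and -0.86 in BA. From 0 to 12 h IL1B was at 0.53 in Cont, -1.10 in BF and -0.66 in BA, and over both fistula columns against Cont the second limma model gave a difference of -1.41 (adjusted p = 0.56). MARCO over the same interval was at -1.10 in Cont, 0.79 in BF and -0.54 in BA, with a difference of 1.22 by that model (adjusted p = 0.9995).

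The change of CXCL1 from 0 h was smaller in the fistula columns than in Cont in the second limma model, by -4.42 at 4 h, -4.52 at 12 h and -3.81 at 24 h. The model was chosen after these values had been seen, so that it is no independent evidence. In each case the Cont column at 0 h, at 1.66 RPKM, is the low one.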

How the results depend on the processing

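Of the member effects given, most kept their direction and side of the threshold. Leaving out all columns of 1 group or 1 time gave CXCL1 from -0.82 to 0.69 for BF against Cont, -0.56 to 0.98 for BA against Cont and -0.0755 to 1.86 at 24 h. IL1RN for BF against Cont ran from -0.42 to 0.33, CCL2 at 4 h from -0.20 to 0.50 and MARCO at 12 h from -0.82 to 0.12. CD163 at 24 h turned from 0.11 to -0.20 with rescaled columns. The cause was not tested. The number of genes called in the same way ran from 0 to 36 for BF against Cont (68 with all columns), 0 to 15 for BA against Cont (6), 0 to 2 for BF against BA (1), 2155 to 2499 at 4 h (3833), 789 to 1821 at 12 h (2664) and 752 to 2583 at 24 h (3056), with fewer columns in each fit.

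Without a filter, 2 genes were called for BF against Cont, 0 for BA against Cont, 15 for the fistula at 0 h (39 with it) and 9 for its 12 h difference (4). Without the BF column at 12 h, 10 were called for BF against Cont, 3 for BF against BA and 0 for the fistula's 4 h difference. The last was also 0 with rescaled columns, and BA against Cont gave 0 without the BA column at 4 h, an alternative chosen after seeing the data, like all those of the fistula model. Members past a log2 ratio of 1 in size numbered 2 instead of 1 for BF against BA at 0 h, 2 instead of 1 for BA against Cont at 4 h and 3 instead of 1 at 12 h with a pseudocount of 0.1 RPKM. With rescaled columns they numbered 0 instead of 2 for BF against Cont at 4 h, 2 instead of 1 for BA against Cont at 4 h, 3 instead of 5 for 12 h in Cont and 1 instead of 3 for 24 h in BF. With no counts, the depth limit of CCL2, CXCL10, IL1B and TNF is unknown. No paired analysis was possible because each group and time has 1 column and the labels give no replicate numbers.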
